A study of Homo sapiens with 6 samples.

Results

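The 42 genes described here encode proteins that make ribosomes in the nucleolus: RNA polymerase I with its initiation factors, the protein partners of small nucleolar RNAs, assembly factors of the small and the large ribosomal subunit, and nucleolar regulators. They were chosen by name, as genes of ribosomal RNA processing and of RNA polymerase I that are largely driven by the transcription factor MYC, and the choice was made with earlier results of these data known. All 42 symbols were found among the 60483 genes of the count tables. DLD-1 is a human colorectal adenocarcinoma cell line. RNA was sequenced after transfection with Control siRNA (3 libraries) or with AHR siRNA (3 libraries), and both groups were the same line, grown in the same medium. AHR encodes the aryl hydrocarbon receptor, a transcription factor activated by ligands. No source used here gives the siRNA sequences, the time after transfection or whether replicates were separate cultures. A p-value here therefore speaks of the spread among these 6 libraries, and that spread may be technical.

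Ribosome synthesis starts when RNA polymerase I, recruited by UBTF, SL1 and RRN3, transcribes ribosomal DNA into a long precursor RNA. Box C/D and box H/ACA ribonucleoproteins then methylate and pseudouridylate that precursor, guided by small nucleolar RNAs, while helicases, nucleases and scaffold proteins cut and fold it into the small and large subunits. MYC, paired with MAX, binds the DNA word CACGTG, called an E-box, and is known to raise the expression of many of these genes in growing cells, colorectal cancer cells among them.

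The libraries held 11567736 to 15037145 counts, and a single one of the 42 genes had between 411 and 43524 counts in a library, so each could be followed in every sample. The AHR transcript itself stood at 117, 144 and 132 CPM (counts scaled to a common library total) in control replicates 1 to 3 against 95.8, 87.4 and 95.0 CPM in the AHR siRNA ones, a fall to 70.8% of control with no overlap. Markers of colon epithelium were present in all libraries, at a summed 10208 to 11117 CPM of the library total in controls and 7421 to 7658 after AHR siRNA, with 6 of 9 tested markers called lower and 1 higher. Summed fibroblast markers gave 2.21 to 3.19 CPM in controls and 2.25 to 3.48 CPM after AHR siRNA, with DCN, LUM and PDGFRA at 0. The 6 leukocyte markers with a count summed to 3.17 to 4.37 CPM in controls and 2.25 to 2.95 CPM after AHR siRNA, without overlap, with MS4A1 at 0. CD14, the single leukocyte marker abundant enough to be tested, fell from 3.21 to 1.90 CPM (log2 fold change -0.75, SE 0.25, edgeR adjusted p = 0.0126). Endothelial markers gave 4.99 to 6.24 CPM in controls and 6.34 to 7.44 CPM after AHR siRNA, with KDR at 0. All these marker sums are scaled by library totals alone, unlike the CPM of single genes. The narrow endothelial gap was not checked under the other scaling. The part of the differing epithelial, leukocyte and endothelial marker sums in the results below was not tested. CPM are relative to the other genes of a library, so fewer cells of a kind and less RNA of a gene per cell cannot be told apart.

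Most of the 42 genes were lower after AHR siRNA. Each was tested as a single gene in an edgeR quasi-likelihood fit over 14900 genes and called at a Benjamini-Hochberg adjusted p under 0.05. Of the 42 genes, 32 fell, 1 rose and 9 were not called. These calls were frequent in the whole experiment, where 30.1% of all tested genes were called lower and 30% higher. Against that background, 76.2% of the 42 were lower and 2.38% were higher. In 32 of the 42 genes all AHR siRNA libraries lay below all control libraries, which held for 31.7% of all tested genes, and in 2 genes all lay above, which held for 32%. The falls were mostly moderate. The median log2 fold change was -0.41, which leaves 75.3% of the control level, against 0.01 over all tested genes, and the middle of the distribution ran from -0.66 to -0.21. A called fall of at least 1.5-fold was found in 13 of the 42, against 13.7% of all tested genes, and a fall of at least 2-fold in 2, LYAR and DDX21, against 5.46%. With edgeR's glmTreat, which tests against a minimum log2 change of 0.32 in either direction, 19 of the 42 were called lower, against 16.8% of all tested genes.

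The median and the summed level of the 42 genes were lower in all 3 AHR siRNA libraries. The median of the 42 log2 ratios to the control mean was 0.07, -0.06 and -0.01 in control replicates 1 to 3 and -0.34, -0.42 and -0.46 in AHR siRNA replicates 1 to 3. Their summed share of all counts was 1.21% to 1.27% in controls and 1.0% to 1.05% after AHR siRNA. Neither measure overlapped between the groups. When libraries were scaled by their totals alone, the median of all genes shifted by 0.15 and the calls over all genes split into 21.5% lower and 39.5% higher. The median of the 42 was then -0.26, against 0.15 over all genes, and 25 of the 42 were called lower. The 7 calls lost under that scaling were those of NPM3, MYBBP1A, NOC4L, NOC2L, NOP16, PES1 and POLR1C. With glmTreat the calls of these 7 and of NPM1, DKC1, RRP12, DDX10, NOC3L and RRP1 were lost, so 13 of the 32 falls were too small to be called against a minimum log2 change of 0.32.

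**Figure D1:**
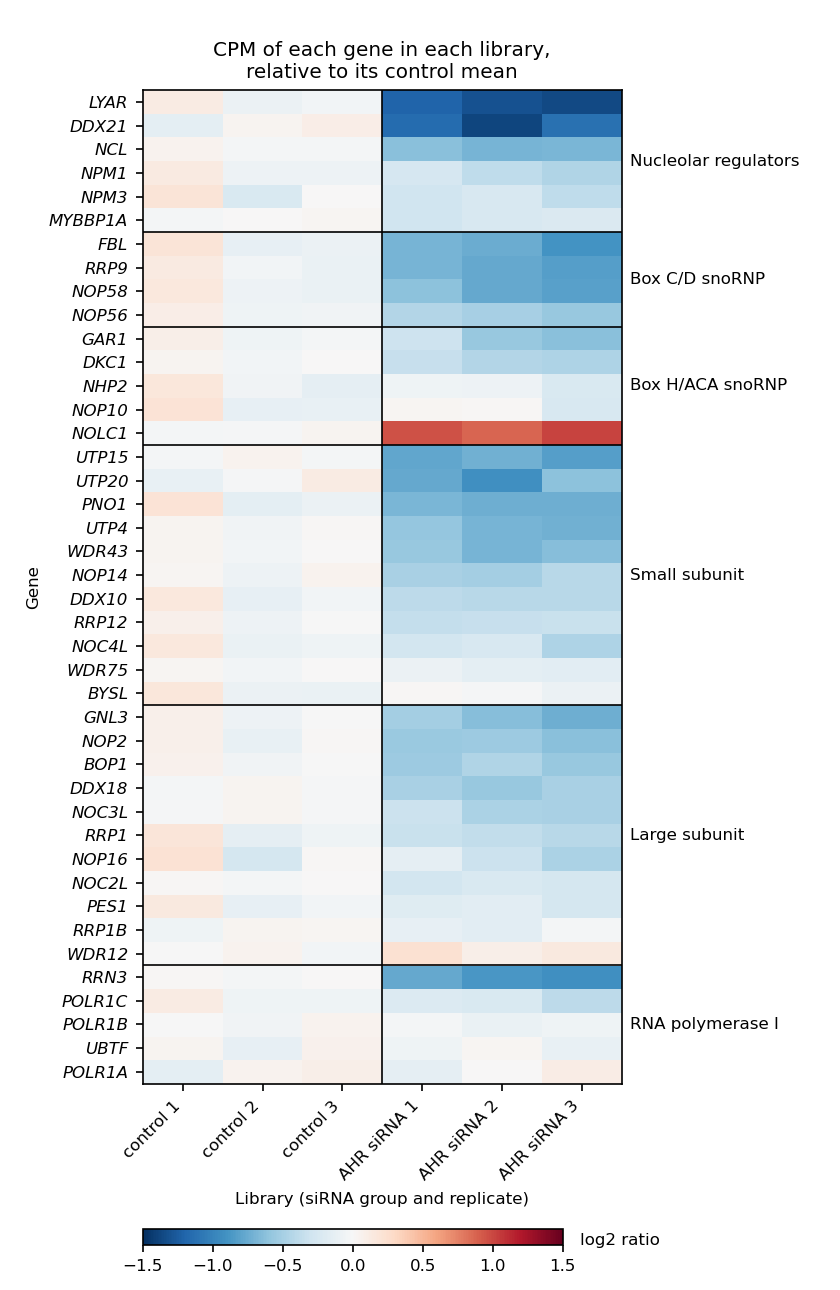
Log2 ratio of each gene's CPM in each library to its mean over the 3 control libraries, with the 42 genes in rows by role and the 6 libraries in columns, blue for lower and red for higher. The AHR siRNA columns are blue in most rows, LYAR and DDX21 are the deepest, NOLC1 is the only strongly red row, and the rows of POLR1A, POLR1B, UBTF, BYSL and NOP10 stay pale.

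The RNA polymerase I machinery was split. RRN3, also called TIF-IA, the factor that makes the polymerase able to initiate, stood at 60.3, 58.3 and 59.8 CPM in controls and at 35, 32.6 and 31.4 CPM after AHR siRNA. The groups were far apart, and RRN3 fell to 55.5% of control (59.4 ± 1.1 to 33.0 ± 1.8 CPM, SD, n = 3 each; log2 fold change -0.85, SE 0.08, edgeR adjusted p = 1.37e-08). Its gene lies at chr16:15060022-15094317 on the minus strand in GRCh38 (GENCODE 29). RRN3 has 2 pseudogenes named after it, and how reads with several matches were counted is not given, so its counts may mix sources. POLR1C, a subunit shared with RNA polymerase III, stood at 71.4, 62.8 and 62.8 CPM in controls and 57.2, 55.8 and 50.1 CPM after AHR siRNA. It fell to 82.8% of control without overlap (log2 fold change -0.27, SE 0.08, edgeR adjusted p = 0.00572), but 18.2% of its exon bases are shared with genes on the opposite strand, and with libraries scaled by their totals its log2 fold change was -0.12 (adjusted p = 0.162).

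The catalytic core and the promoter factor gave no call. POLR1A, the largest subunit, stood at 215, 245 and 252 CPM in controls and at 216, 238 and 257 CPM after AHR siRNA. The group means were equal, at 237 ± 20 CPM (SD, n = 3) in each (log2 fold change 0.00, SE 0.08, edgeR adjusted p = 0.999). POLR1B, the other large core subunit, stood at 88.5, 86.0 and 92.5 CPM against 87.1, 83.2 and 85.0 CPM (log2 fold change -0.07, SE 0.07, edgeR adjusted p = 0.417). UBTF, the upstream binding factor that opens ribosomal DNA, stood at 234, 209 and 238 CPM against 218, 232 and 210 CPM (log2 fold change -0.04, SE 0.07, edgeR adjusted p = 0.602). The groups overlapped in all 3 genes, and the sign of each changed under at least 1 scaling. RRN3 thus had the widest gap between groups of these 5 genes.

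**Figure D2:**
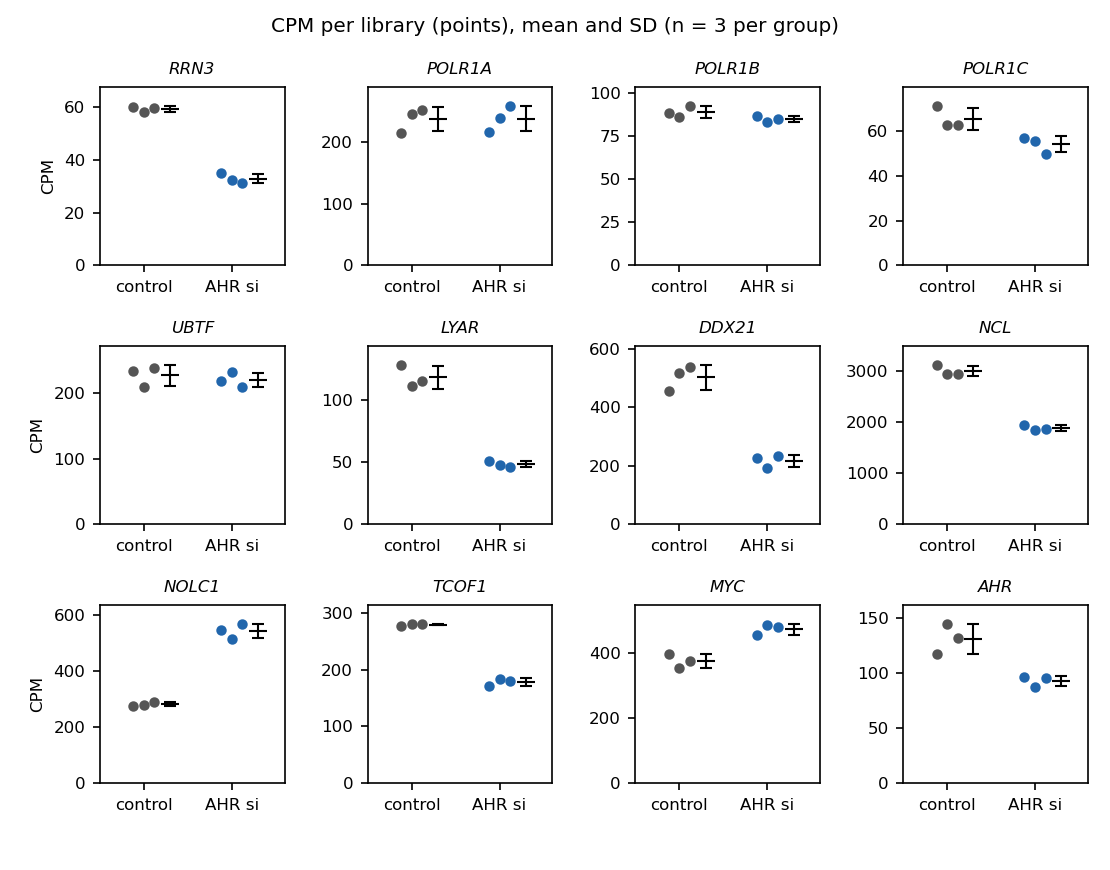
CPM in each library (points: grey for Control siRNA, blue for AHR siRNA, replicates 1 to 3 from left to right) with the group mean and SD beside them, n = 3 per group, for the 5 RNA polymerase I genes, the regulators LYAR, DDX21 and NCL, NOLC1, TCOF1, MYC and AHR. RRN3, LYAR, DDX21, NCL, TCOF1 and AHR fell without overlap, NOLC1 and MYC rose without overlap, and POLR1A, POLR1B and UBTF overlap.

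All 6 nucleolar regulators fell, against 30.1% of all tested genes called lower, and their median log2 fold change was -0.51. LYAR, a zinc finger protein of the nucleolus that takes part in ribosomal RNA synthesis and processing, stood at 128, 111 and 115 CPM in controls and at 51.2, 47.6 and 46.0 CPM after AHR siRNA. It fell furthest of the 42, to 40.9% of control (log2 fold change -1.29, SE 0.08, edgeR adjusted p = 5.27e-11), and lies at chr4:4267701-4290169 on the minus strand (GRCh38). DDX21, an RNA helicase that couples polymerase I transcription with processing, stood at 454, 516 and 536 CPM against 226, 194 and 232 CPM. It fell to 43.2% of control (log2 fold change -1.21, SE 0.08, edgeR adjusted p = 2.56e-10), and lies at chr10:68956128-68985073 on the plus strand (GRCh38). In both genes the highest AHR siRNA library was below the lowest control library by a wide margin.

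NCL, which encodes nucleolin, an abundant RNA-binding protein of the nucleolus, stood at 3123, 2940 and 2944 CPM in controls and at 1949, 1844 and 1874 CPM after AHR siRNA. It fell to 62.9% of control (log2 fold change -0.67, SE 0.07, edgeR adjusted p = 1.32e-07). Per kilobase of exon, NPM1 and NCL were the most abundant of the 42, at 775 and 433 CPM per kilobase in controls, and WDR12 was the least abundant at 10.5. The other 3 regulators fell less. NPM1, the chaperone nucleophosmin, fell by 0.36 on the log2 scale, its relative NPM3 by 0.31, and MYBBP1A, a nucleolar partner of MYB, by 0.25. NPM1 has 45 pseudogenes named after it in GENCODE 29, so its counts may mix sources.

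Box C/D ribonucleoproteins carry the guide RNAs of 2'-O-methylation, and all 4 of their genes fell, against 30.1% of all tested genes. The median log2 fold change of the 4 genes, -0.75, was the lowest of any role. FBL, the methyltransferase fibrillarin, stood at 426, 341 and 350 CPM in controls and at 230, 223 and 201 CPM after AHR siRNA. It fell to 58.5% of control (log2 fold change -0.77, SE 0.08, edgeR adjusted p = 1.7e-07), with no overlap although control replicate 1 stood above the other controls. RRP9, the protein specific to the U3 particle that guides early cleavage of the precursor, stood at 85.8, 76.3 and 73.2 CPM against 48.2, 46.2 and 44.4 CPM. It fell to 58.9% of control (log2 fold change -0.76, SE 0.08, edgeR adjusted p = 8.5e-08). NOP58, a core scaffold, stood at 293, 248 and 245 CPM against 170, 154 and 148 CPM, a fall to 60.1% (log2 fold change -0.73, SE 0.08, edgeR adjusted p = 1.62e-07). Its partner NOP56 fell to 70.8% of control, from 560 to 396 CPM. The log2 fold changes of FBL, RRP9 and NOP58 ran from -0.77 to -0.73 and that of NOP56 was -0.50, and the differences between these genes were not tested.

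The box H/ACA genes, whose particles guide pseudouridylation, moved apart. DKC1, the pseudouridine synthase dyskerin, stood at 227, 216 and 222 CPM in controls and at 174, 164 and 161 CPM after AHR siRNA, and fell to 75.1% (log2 fold change -0.41, SE 0.06, edgeR adjusted p = 1.83e-05). GAR1, a core protein, stood at 49.4, 44.4 and 45.7 CPM against 37.5, 31.3 and 30.2 CPM, and fell to 70.9% (log2 fold change -0.50, SE 0.09, edgeR adjusted p = 8.72e-05). The groups were separate in both. The other core proteins were not called. NHP2 stood at 121, 104 and 98.5 CPM against 103, 103 and 92.1 CPM (log2 fold change -0.12, SE 0.08, edgeR adjusted p = 0.198), and 27.4% of its exon bases overlap RMND5B on the opposite strand. NOP10 stood at 156, 124 and 125 CPM against 137, 137 and 114 CPM (log2 fold change -0.06, SE 0.09, edgeR adjusted p = 0.574). Control replicate 1 was the highest library in both genes, and their signs changed with the scaling.

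NOLC1 went the other way. It encodes Nopp140, a phosphoprotein that chaperones small nucleolar ribonucleoproteins between the Cajal body and the nucleolus. NOLC1 stood at 275, 277 and 289 CPM in controls and at 546, 513 and 565 CPM after AHR siRNA, and rose to 193% of control (281 ± 8 to 541 ± 26 CPM, SD, n = 3 each; log2 fold change 0.95, SE 0.07, edgeR adjusted p = 4.93e-10). The replicates were tight in both groups and did not overlap. The gene lies at chr10:102152176-102163871 on the plus strand (GRCh38). It was the single called rise among the 42, and its call held in all 17 alternatives.

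Among the 11 genes of small subunit assembly, 9 fell, against 30.1% of all tested genes, and 2 were not called. The median log2 fold change of the 11 was -0.47. UTP15, part of the early complex that binds the nascent precursor, stood at 68.6, 72.8 and 68.8 CPM in controls and at 40.8, 42.6 and 39.6 CPM after AHR siRNA, a fall to 58.5% (log2 fold change -0.77, SE 0.07, edgeR adjusted p = 2.8e-08). UTP20, a large scaffold of the processome, stood at 129, 138 and 152 CPM against 81.8, 73.7 and 91.0 CPM, a fall to 58.9% (log2 fold change -0.76, SE 0.08, edgeR adjusted p = 1.82e-07). PNO1, an RNA-binding factor that stays on the pre-40S particle, stood at 92.1, 72.3 and 74.9 CPM against 49.6, 48.1 and 48.1 CPM, a fall to 60.9% (log2 fold change -0.71, SE 0.09, edgeR adjusted p = 8.02e-07). All 3 were separate between groups, with control replicate 1 apart from the other controls in PNO1.

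UTP4 and WDR43, which belong to the same early complex as UTP15, fell to 63.1% and 64.3% of control. NOP14 and NOC4L, which bind each other in the processome, fell to 72.1% and 79.8%, the helicase gene DDX10 to 75.5% and RRP12, a factor of particle maturation and export, to 78.7%. For NOP14, 17.1% of exon bases overlap its antisense gene NOP14-AS1, and the effect of this on the counts was not tested. WDR75, another member of the early complex, stood at 130, 124 and 128 CPM against 120, 115 and 114 CPM. Its libraries did not overlap, but it was not called (log2 fold change -0.13, SE 0.06, edgeR adjusted p = 0.0875). BYSL, or bystin, a factor of pre-40S maturation, stood at 61.8, 51.8 and 51.2 CPM against 55.7, 54.3 and 51.6 CPM, with overlap (log2 fold change -0.03, SE 0.08, edgeR adjusted p = 0.785). Among the 4 genes of the early complex that are in this set, the log2 fold changes ran from -0.77 for UTP15 to -0.13 for WDR75. HEATR1 and NOL11, of the same complex and outside the set, were at -0.39 and -0.62 and are given after their values were seen.

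Of the 11 genes of large subunit assembly, 9 fell, against 30.1% of all tested genes, and 2 were not called. The median log2 fold change of the 11 was -0.37. GNL3, the nucleolar GTPase nucleostemin, stood at 333, 301 and 314 CPM in controls and at 222, 203 and 191 CPM after AHR siRNA, a fall to 64.9% (log2 fold change -0.62, SE 0.07, edgeR adjusted p = 3.89e-07). NOP2, an RNA methyltransferase and proliferation antigen, stood at 293, 257 and 281 CPM against 189, 191 and 179 CPM, a fall to 67.2% (log2 fold change -0.57, SE 0.07, edgeR adjusted p = 6.65e-07). Both were separate between groups, but 54.4% of the exon bases of NOP2 are shared with AC006064.6 on the same strand, so its level is uncertain.

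The PeBoW complex, made of PES1, BOP1 and WDR12 and needed for processing of the large subunit RNA, was not uniform. BOP1 stood at 193, 178 and 184 CPM in controls and at 126, 135 and 124 CPM after AHR siRNA, a fall to 69.6% (log2 fold change -0.52, SE 0.07, edgeR adjusted p = 1.44e-06). PES1 fell to 87.0% (log2 fold change -0.20, SE 0.07, edgeR adjusted p = 0.0229), the smallest called fall of the 42. The call of PES1 was lost without control replicate 1 (-0.13, adjusted p = 0.0678) and without AHR siRNA replicate 3 (-0.17, adjusted p = 0.0958). WDR12 stood at 95.0, 98.6 and 92.5 CPM against 112, 101 and 106 CPM, higher in every AHR siRNA library but not called (log2 fold change 0.15, SE 0.07, edgeR adjusted p = 0.0567). It passed the threshold with upper-quartile scaling (0.23, adjusted p = 0.00573), with library totals (0.30, adjusted p = 0.00103) and with a filter of 1 CPM in 3 libraries (0.16, adjusted p = 0.0438). The differences between these 3 genes were not tested.

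The helicase gene DDX18 fell to 70.0% of control, NOC3L to 74.3% and its partner in assembly NOC2L to 83.9%, and RRP1 to 77.3%. NOP16 fell to 80.8% (log2 fold change -0.31, SE 0.10, edgeR adjusted p = 0.0155), but its groups overlapped, with 83.1, 59.8 and 72.5 CPM in controls against 65.4, 57.2 and 51.6 CPM. Its call was lost without AHR siRNA replicate 2 (adjusted p = 0.0627) and without AHR siRNA replicate 3 (adjusted p = 0.0753), and 20% of its exon bases overlap ARL10 and HIGD2A on the opposite strand. RRP1B, the paralogue of RRP1, was not called, at 200, 216 and 214 CPM against 193, 189 and 206 CPM (log2 fold change -0.10, SE 0.07, edgeR adjusted p = 0.192). It passed the threshold without control replicate 1 (-0.15, adjusted p = 0.0487). DDX18 has 5 pseudogenes named after it. NOP56 has 3, NCL, NHP2, DDX10, NOC2L and PES1 have 2 each, and LYAR has 1, so their counts may mix sources too.

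**Figure D3:**
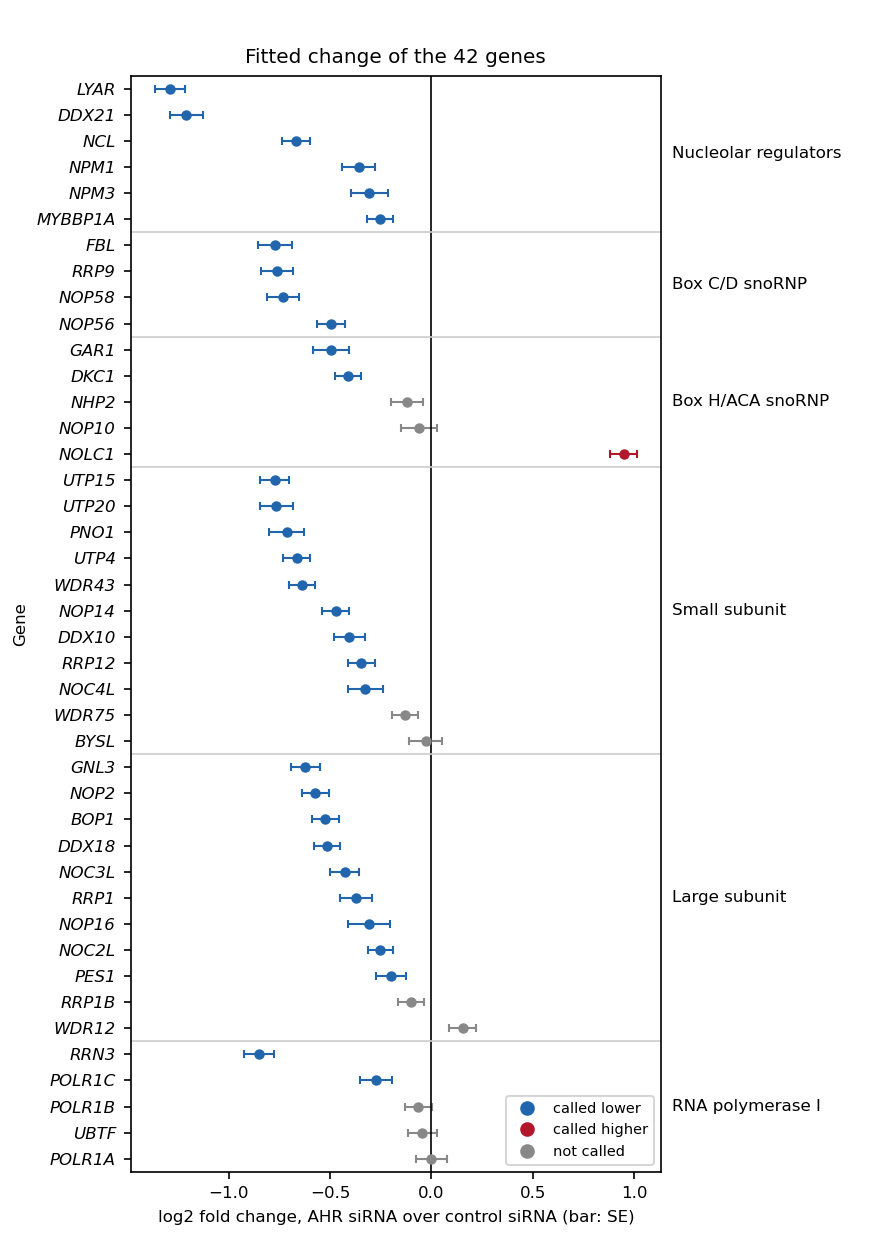
Fitted log2 fold change of each of the 42 genes, AHR siRNA over Control siRNA (point) with its SE (bar), by role, with blue for called lower, red for called higher and grey for not called. The points of the regulators and the box C/D genes are all left of 0, from -1.29 to -0.25, NOLC1 stands alone at 0.95, and the grey points of the RNA polymerase I genes lie at 0; those of POLR1A, POLR1B, UBTF, NHP2, NOP10, WDR75, BYSL and RRP1B change sign under at least 1 alternative.

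Other genes of the pathway, listed by role from general knowledge, were lower in most cases as well. Of 146 tested genes in 5 lists, 97 were called lower (66.4%) and 6 higher, with a median log2 fold change of -0.29, against the 30.1% lower over all tested genes. The list of other RNA polymerase I genes had 10 lower and 2 higher of 16. TCOF1, or treacle, a nucleolar protein that binds RNA polymerase I and UBTF, stood at 278, 281 and 281 CPM in controls and at 172, 185 and 181 CPM after AHR siRNA, a fall to 63.9% of control. POLR1E, the subunit that helps recruit the polymerase, fell to 68.2%. POLR1D, shared with RNA polymerase III, rose to 163% (250, 208 and 227 CPM against 405, 367 and 347), and TAF1C, a subunit of the promoter factor SL1, rose to 146%. Within polymerase I and its factors, calls in both directions thus stood beside POLR1A, POLR1B and UBTF, which were not called.

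In the remaining lists most calls were falls, while over all tested genes 30.1% were called lower and 30% higher. Of 45 further small subunit factors, 32 fell and 1 rose, led by RRP7A (to 56.6% of control) and LTV1, which acts on the late pre-40S particle (to 57.1%), while PDCD11, a large scaffold used by both subunits, rose to 116%. Of 47 further large subunit factors, 32 fell and 2 rose. RRS1, which brings the 5S particle to the pre-60S, fell to 41.4% and RRP15 to 48.3%, whereas NOP53 rose to 172% and ZNF622, a cytoplasmic pre-60S factor, to 124%. Among 12 genes that assemble small nucleolar ribonucleoproteins, 7 fell and 5 were not called, with TGS1, the cap methyltransferase, at 65.9% of control and the chaperone cofactor RPAP3 at 75.2%. Of 26 genes of ribosomal RNA nucleases and their cofactors, 16 fell and 1 rose. The exosome cofactor C1D fell to 31.1% and the RNase P and RNase MRP subunit RPP30 to 31.3%, the lowest of the named pathway genes, and the exonuclease ISG20L2 rose to 135%. With libraries scaled by their totals, 63 of the 146 were lower and 16 higher, against 21.5% and 39.5% of all tested genes.

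The proteins of the finished ribosome did not follow the same pattern. Of 79 cytosolic ribosomal protein genes, 7 were called lower (8.86%), 5 higher (6.33%) and 67 were not called. Over all tested genes, 30.1% were called lower and 30% higher. The log2 fold changes of the 79 ran from -0.39 to 0.48, with a median of -0.03. RPL35 and RPS27A fell to 76.1% and 76.6% of control, and RPL13A and RPL3 rose to 139% and 119%, with overlap in RPL3. These counts were not steady: without control replicate 1, 24 genes were called higher, without control replicate 2, 16 were called lower and 1 higher, and without control replicate 3, 11 were lower and 1 higher. Without AHR siRNA replicate 1 the counts were 14 lower and 2 higher, without replicate 2 the count of rises was 1, and without replicate 3 they were 3 lower and 9 higher. The range of fold changes was narrower than that of the assembly factors, and the difference between the lists was not tested.

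**Figure D4:**
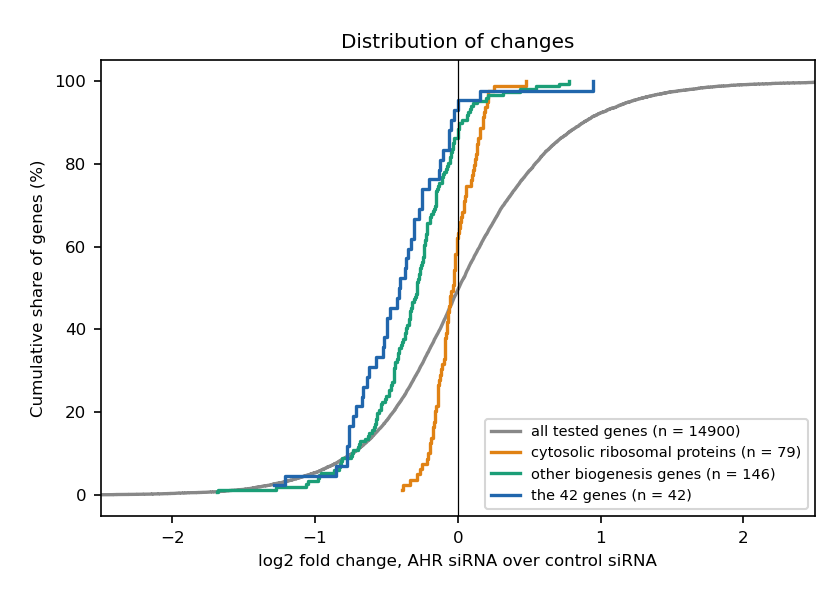
Cumulative share of genes (vertical axis, percent) up to each log2 fold change (horizontal axis, AHR siRNA over Control siRNA) for all 14900 tested genes, the 42 genes, the 146 other biogenesis genes and the 79 cytosolic ribosomal protein genes. The curves of the 42 and the 146 genes cross their middle at -0.41 and -0.29, left of the curve of all genes at 0.01, and the ribosomal protein curve rises steeply around -0.03; under library totals the median of all genes moves up by 0.15.

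MYC, the factor named in the choice of these genes, was higher and not lower. It stood at 395, 352 and 376 CPM in controls and at 453, 483 and 480 CPM after AHR siRNA, and rose to 126% of control without overlap (log2 fold change 0.34, SE 0.07, edgeR adjusted p = 0.000271). Against the minimum log2 change of 0.32 its adjusted p was 0.375 and it was not called. MAX, its partner, stood at 59.7, 60.7 and 56.6 CPM against 59.8, 60.3 and 60.1 CPM and was not called (log2 fold change 0.03, SE 0.07, edgeR adjusted p = 0.77). The libraries measure RNA, and the level or activity of the MYC protein was not measured.

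The start regions of the genes were searched for the E-box CACGTG, which reads the same on both strands. RefSeq start windows (GRCh38.p14, 250 bases before to 50 after a start) were given for 36 of the 42 genes. None was given for BOP1, DDX18, NOLC1, NOP58, RRP12 and RRP1B, so the counts of words in start windows leave these genes out. The word was present in 17 of these 36 (47.2%), against 12.4% of the 10720 tested genes with a window and 8.77% of all 27305 genes with one. The 42 genes were chosen as largely driven by MYC, which binds this word, so a raised share may follow from that choice. The windows around the E-box are shown for the 9 genes that fell at least 1.5-fold and for the 2 that were not called. They show the shared word and its different surroundings. Each position is counted from the RefSeq start of the window that holds the word. By GENCODE 29 bounds, the words placed before the start in LYAR, DDX21, RRP9 and UTP4 lie inside the gene. So does the nearer word of NOP10. Each is 30 bases long and is read 5′ to 3′ on the strand of the gene, with the E-box in capitals.
LYAR, chr4:4290068-4290097, minus strand, 64 bases before the start: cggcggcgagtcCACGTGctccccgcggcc
DDX21, chr10:68956604-68956633, plus strand, 31 bases before the start: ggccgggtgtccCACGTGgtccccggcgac
FBL, chr19:39846356-39846385, minus strand, 7 bases after the start: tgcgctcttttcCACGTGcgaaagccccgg
UTP20, chr12:101280083-101280112, plus strand, 10 bases before the start: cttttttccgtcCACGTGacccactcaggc
RRP9, chr3:51941892-51941921, minus strand, 5 bases before the start: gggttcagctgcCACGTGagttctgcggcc
PNO1, chr2:68157885-68157914, plus strand, 10 bases after the start: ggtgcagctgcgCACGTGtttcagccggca
UTP4, chr16:69132621-69132650, plus strand, 16 bases before the start: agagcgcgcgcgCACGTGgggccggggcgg
WDR43, chr2:28894658-28894687, plus strand, 4 bases after the start: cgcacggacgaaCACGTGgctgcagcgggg
GNL3, chr3:52686026-52686055, plus strand, 7 bases after the start: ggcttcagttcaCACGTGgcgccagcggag
BYSL, chr6:41921515-41921544, plus strand, 29 bases after the start: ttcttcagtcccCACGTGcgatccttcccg
NOP10, chr15:34343130-34343159, minus strand, 11 bases before the start: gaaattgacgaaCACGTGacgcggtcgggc
NOP10, chr15:34343289-34343318, minus strand, 170 bases before the start: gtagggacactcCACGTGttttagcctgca

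The E-boxes lay close to a RefSeq start. The 36 genes had 44 windows, and a gene was counted if any of its windows held the word. In DDX21, GAR1, GNL3 and LYAR another window had no E-box. In 11 of the 36 genes (30.6%) the word was within the 50 bases after the start, against 1.5% of tested genes, a window chosen after the positions were seen. In the 250 bases before the start it was found in 5 of the 36 (13.9%), against 11.1% of tested genes. In RRP9 the word spans the start. Of the 17 genes with an E-box, 15 were called lower, with a median log2 fold change of -0.62, and of the 19 without, 13 were lower, with a median of -0.31. Among all other tested genes, 451 of 1311 were lower (34.4%) with the word in the 300 bases and 32.3% without it. With the word in the 50 bases after the start, 59 of 150 were lower (39.3%), against 32.4% without it there. The shares called higher in that window were 27.3% with the word and 30.9% without it. These differences were not tested. A match is only a run of letters in a window, and binding was not measured.

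**Figure D5:**
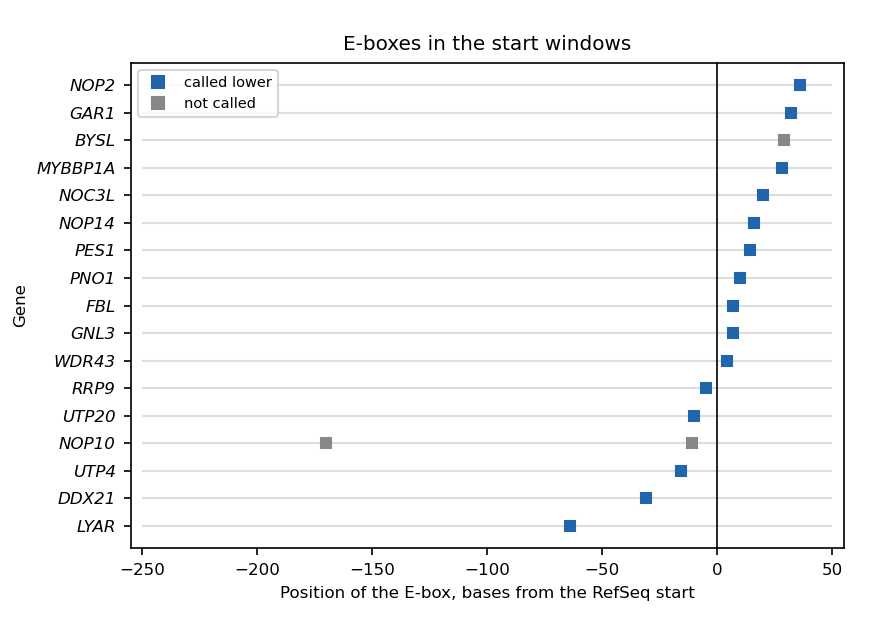
Distance of each E-box from the RefSeq start of its window (horizontal axis, bases, start at 0), for the 17 genes that hold one. Genes are in rows, with blue for called lower and grey for not called. Most words lie between 64 bases before and 36 bases after the start, and 1 of the pair in NOP10 lies at 170 before it.

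The word GCGTG, the core of the element bound by AHR with its partner ARNT, was searched on both strands of the same windows. It was found in 28 of the 36 genes (77.8%), against 58.0% of tested genes. In the 250 bases before the start it was present in 23 of 36 (63.9%), against 52.9%, and in the 50 bases after it in 11 of 36 (30.6%), against 12.8%. Over the 300 bases, 23 of the 28 genes called lower held the word, and 5 of the 8 others. Before the start the counts were 21 of 28 and 2 of 8, and after it 7 of 28 and 4 of 8. These differences were not tested, and the other tested genes were not split by call for this word. LYAR, DDX21, RRN3, RRP9 and FBL each held at least 1 copy, and NCL and UTP20, which also fell, held none. So short a word is found near the start of most tested genes.

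The words GACTTAA and CACAACA in 3' UTRs were picked earlier on the fold changes of these same libraries, so their counts are a description only. In the longest coding transcript of GENCODE 29, 5 of the 42 genes held either word (11.9%), near the 15.4% of 12392 tested genes. These were DDX21, RRN3 and UTP20, which fell, and POLR1A and WDR12, which were not called, with a median log2 fold change of -0.76. Of the 37 genes with neither word, 29 were lower, with a median of -0.40. Over all tested genes, 901 of 1905 with either word were lower and 449 higher (median -0.19), and 3291 of 10487 with neither were lower and 3312 higher (median 0.00).

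Several of the genes also overlap genes of small nucleolar RNAs on the same strand. Whether these lie in introns was not checked. By GENCODE 29, 7 of the 42 overlap at least 1 such gene: NCL, NOP56, NOP58, DKC1, WDR43, GNL3 and POLR1C, the last only the entry RF00426. All 7 were called lower, against 30.1% of all tested genes, with a median log2 fold change of -0.62. Of the 35 other genes, 25 were lower, with a median of -0.36. NCL overlaps SNORA75, SNORD20 and SNORD82, and NOP56 overlaps 5, SNORA51 and SNORD86 among them. The levels of the small RNAs themselves are not analysed here.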

How the data were processed

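RNA of 3 Control siRNA and 3 AHR siRNA samples was sequenced, and groups and replicate numbers come from the sample titles. The authors deposited raw counts per versioned Ensembl gene ID. The tools were HTSeq, TopHat and TopHat2 2.0.11, per the submitters' processing notes, and the builds named there are GRCh37 and hg19. Since some IDs come from GRCh38 annotations, the build of the counts is uncertain. No source used here gives the strand setting or how reads with several matches were counted.

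Counts were tested with edgeR 4.0.16 (R 4.3.3): filterByExpr, TMM scaling and a quasi-likelihood fit of the group over 14900 genes with Benjamini-Hochberg adjustment, checked on simulated counts. CPM use TMM-scaled sums of tested genes, except in the marker sums, which use library totals without TMM. An SE is the log2 fold change divided by the square root of F. Alternatives used DESeq2 1.42.0, limma 3.58.1, other scalings, filters and thresholds, a replicate block, and left out each library. No 2 libraries of a group agreed within sampling noise. The chi-square per degree of freedom, higher for less alike libraries, was 1.54 between control replicates 2 and 3. It was 8.68 and 7.55 for control replicate 1 against replicates 2 and 3. Among AHR siRNA libraries it ran from 3.31 to 5.46.

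The 42 genes and the lists were chosen with earlier results of these data known. Values per library are given for each RNA polymerase I gene and, in each other role, for up to 3 largest called falls, up to 2 largest called rises and all genes not called, and for some others after their values were seen. In each further list the 2 largest called falls and rises are named. Promoter windows are from RefSeq (GRCh38.p14), and gene positions, overlaps and 3' UTRs from GENCODE 29. A marker gene is not reported here.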

Additional observations from a re-analysis of the deposited data

How the results depend on the processing

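Of the 32 genes called lower, 19 kept the call in all alternatives and 13 lost it in at least 1, mostly with glmTreat (a minimum log2 change of 0.32) or with library totals, and none of the 32 changed sign. The count of 32 was 19 with glmTreat and otherwise 25 to 33 (31 without ribosomal protein and the 20 most abundant genes, which include NPM1), and 30 to 32 with a library left out. The count called higher was 2 with upper-quartile factors, library totals, the filter of 1 CPM in 3 libraries and the replicate block. The median of the 42 was -0.33 with upper-quartile factors, -0.26 with library totals and -0.44 to -0.37 with a library left out. In the other lists, 63 of 146 were lower and 16 higher with library totals, against 21.5% and 39.5% of all tested genes. With glmTreat 42 were lower, against 16.8% of all tested genes.

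Ribosomal protein genes called lower were 4 with upper-quartile factors, 3 with library totals, 16 with no filter, 23 with the block, 0 with glmTreat, 4 at an adjusted p under 0.01 and 3 to 16 with a library left out. Those called higher were 15, 27 and 15 with upper-quartile factors, library totals and the block, 1 with glmTreat and 1 at an adjusted p under 0.01, and 1 to 24 with a library left out.

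MYC kept its log2 fold change of 0.34 and lost its call with glmTreat. MAX was called with library totals (0.17) and ran from -0.013 (without control replicate 3) to 0.038 with a library left out. Genes that were not called changed sign as follows. With upper-quartile factors, NOP10 was at 0.018, BYSL at 0.051, POLR1B at 0.014 and UBTF at 0.035. With library totals, NHP2 was at 0.028, NOP10 at 0.088, WDR75 at 0.018, BYSL at 0.12, RRP1B at 0.045, POLR1B at 0.083 and UBTF at 0.10. With a library left out, NOP10 ran from -0.13 to 0.045 (over 0 without control replicate 1 or AHR siRNA replicate 3), BYSL from -0.085 to 0.055 (over 0 without the same) and POLR1A from -0.076 to 0.061. POLR1A was at -0.0039 with DESeq2 size factors and with the DESeq2 test, -0.011 with no filter, -0.00028 with limma-voom, -0.00048 with the replicate block and -0.0022 without ribosomal protein and the 20 most abundant genes. The median of all genes moved up by 0.079 with upper-quartile factors and by 0.15 with library totals. The median of the 42 minus that of all genes was -0.42 in the main fit and with upper-quartile factors, and -0.41 with library totals. The cause of the changes of sign was not tested.

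Whether the replicate numbers pair the samples was not settled. Residuals of same-numbered libraries correlated at 0.19, -0.04 and 0.15, with 2 of 3 pairs over a limit of 0.1. Of the 6 libraries, 3 correlated best with their own number. Over all genes, the replicate block gave 4810 lower and 4788 higher, against 4479 and 4474 in the main fit. With the replicate block, 33 of the 42 were lower and 2 higher (WDR75 and WDR12 gained calls).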
